A study of Mus musculus with 11 samples.

Results

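Sites of the histone acetyltransferases p300 and Cbp in the mouse tumour line M00001 were set against chromatin carrying H3K27ac in a second mouse tumour line, M00002. An acetylated region was the merged span of overlapping H3K27ac peaks of antibodies ac4729 and ac647, and a coactivator peak matched when it shared at least 1 bp with such a region. Peaks that overlapped an IgG peak of either line were removed, and chromosomes 1 to 19 and X were used. This left 5016 of 6655 p300 peaks, 4696 of 6608 Cbp peaks and 10271 acetylated regions, from 11 lists with 158808 peaks in all. p300 and Cbp peaks that overlapped each other were merged into 8844 coactivator sites, of which 861 held both proteins, 4152 only p300 and 3831 only Cbp.

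The profiles came from CUT&RUN: permeabilised cells are given an antibody, a nuclease tethered to it cuts the DNA around the bound protein, and the fragments set free are sequenced. Both lines were untreated cultures grown in neural basal medium with bFGF and rhEGF, and both carried an HA-tagged fusion, labelled CRfus1 and taken here as the ZFTA-RELA fusion of the series title. H3K27ac and p65 were profiled in M00002, and p300, Cbp and Rpb1 with antibodies S2 and S5 in M00001, while HA and IgG were profiled in both. Each line carried 1 mouse label, each target had 1 library per line, and neither the promoter behind the fusion nor an untagged control is given in the labels. In the lists used here H3K27ac and the coactivators come from different lines, so a difference between the lines and a difference between the marks cannot be told apart. In M00001, the titles of p300, Cbp and both Rpb1 libraries share a number absent from the HA and IgG titles, and its part in the results was not tested.

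p300 (gene Ep300) and Cbp (gene Crebbp) are closely related enzymes that acetylate lysine 27 of histone H3. They hold no DNA-binding domain of their own for a given sequence and are brought to promoters and enhancers by transcription factors, among them CREB and the NF-kappaB subunit RelA, whose activation domain the ZFTA-RELA fusion keeps. H3K27ac marks active promoters and enhancers, and Rpb1 is the largest subunit of RNA polymerase II, phosphorylated at serine 5 of its tail near the start of genes and at serine 2 during elongation.

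The sequences below show what coactivator sites at gene starts looked like inside and outside the acetylated regions of the other line. They are the 250 bases upstream of the RefSeq start site (GRCm38.p6, the assembly behind mm10) for the 2 highest-ranked matching and the 2 highest-ranked non-matching gene-end sites of both coactivators whose peak reached such a window. Capitals mark matches on either strand to GGGCGG, bound by Sp1 and its relatives, to CCAAT, bound by NF-Y, to CCGGAAG of the ETS family, to TGACGTCA, the CRE of CREB, or to GCGCANGC of NRF1, and matches may overlap one another.
Parp3 (matching, chr9:106476950-106477199, minus strand): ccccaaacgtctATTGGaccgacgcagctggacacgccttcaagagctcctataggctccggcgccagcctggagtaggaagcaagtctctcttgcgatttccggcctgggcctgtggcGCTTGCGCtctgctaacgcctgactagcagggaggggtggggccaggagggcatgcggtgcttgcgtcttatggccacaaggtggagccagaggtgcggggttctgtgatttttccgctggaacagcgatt
Ptp4a1 (matching, chr1:30949756-30950005, minus strand): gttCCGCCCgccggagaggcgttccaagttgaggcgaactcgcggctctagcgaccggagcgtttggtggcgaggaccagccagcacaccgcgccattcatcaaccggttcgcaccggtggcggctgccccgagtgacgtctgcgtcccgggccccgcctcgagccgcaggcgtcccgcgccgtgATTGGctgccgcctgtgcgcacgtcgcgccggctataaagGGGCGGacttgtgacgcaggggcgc
Inpp5a (non-matching, chr7:139388859-139389108, plus strand): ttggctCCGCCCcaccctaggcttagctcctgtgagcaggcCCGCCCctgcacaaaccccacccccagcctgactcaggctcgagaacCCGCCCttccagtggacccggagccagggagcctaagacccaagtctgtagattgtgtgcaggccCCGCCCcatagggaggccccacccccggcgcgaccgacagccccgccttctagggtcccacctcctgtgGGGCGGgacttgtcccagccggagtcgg
Vcl (non-matching, chr14:20929148-20929397, plus strand): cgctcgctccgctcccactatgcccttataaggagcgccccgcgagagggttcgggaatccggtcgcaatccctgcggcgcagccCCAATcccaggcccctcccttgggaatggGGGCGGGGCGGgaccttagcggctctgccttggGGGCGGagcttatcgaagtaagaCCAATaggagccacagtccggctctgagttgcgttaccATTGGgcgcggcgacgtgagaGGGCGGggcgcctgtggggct
Of these windows, Parp3 held 1 NF-Y match and 1 NRF1 match, Ptp4a1 2 Sp1 matches and 1 NF-Y match, Inpp5a 5 Sp1 matches, and Vcl 4 Sp1 and 3 NF-Y matches. The non-matching sites at Inpp5a and Vcl did overlap an ac4729 peak (folds 6.18 and 4.60), but none of ac647.

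The first question was how many coactivator sites of M00001 lay in chromatin that was acetylated in M00002. Of the p300 peaks, 30.7% (1538; exact Clopper-Pearson 95% interval 29.4 to 32.0) overlapped an acetylated region. Of the Cbp peaks, 12.9% (606; 12.0 to 13.9) did. Most sites of either coactivator were thus outside the regions, and the 2 intervals were far apart. Intervals cover counting error over peaks only, and with 1 library per target no difference has a replicate check. Beside these, 35.6% of HA peaks, 25.3% of S5 peaks and 19.6% of S2 peaks of M00001 lay in the same regions. p300 stood between HA and S5, and Cbp was the lowest of the 5 targets of that line. With IgG-overlapping peaks kept, 31.5% of p300, 16.5% of Cbp and 16.0% of the M00001 IgG peaks (14.2 to 17.8) lay in acetylated regions. The Cbp share was thus within the interval of the control list of its own line. Of M00002 IgG peaks, 8.04% (7.36 to 8.76) lay there. In that setting 19.7% of the Cbp peaks themselves overlapped an IgG peak of either line. The lists differed in the evidence behind their peaks: 47.0% of p300 and 22.7% of Cbp peaks had q below 0.01. Among peaks with q of at most 0.01 the shares were 39.2% for p300 and 26.4% for Cbp, and among the 2000 strongest 38.3% and 20.6%. With −log10 q of at least 5 in all 4 lists they were 25.0% (21.5 to 28.9) and 31.6% (25.5 to 38.3). Cbp was then the higher, with overlapping intervals. That setting also limited the H3K27ac peaks, leaving 3522 acetylated regions, 543 p300 peaks and 215 Cbp peaks.

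Sites that held both coactivators matched most often. Of the 861 sites of both, 43.6% (40.2 to 46.9) overlapped an acetylated region, against 28.0% (26.6 to 29.4) of p300-only and 6.29% (5.54 to 7.11) of Cbp-only sites. The odds of a match were 3.62 times those of all other sites (95% interval 3.13 to 4.19, Fisher's exact test, two-sided, p = 9.18e-62, adjusted 1.73e-61 over 17 planned tests). The odds ratio was 2.66 at gene ends and 3.94 at distal sites. Against p300-only sites alone it was 1.99 (1.71 to 2.31), in a comparison added after seeing the data. Sites of both were also wider, with medians of 476 bp when matching and 434 bp when not, against 321 and 253 bp for p300-only and 261 and 242 bp for Cbp-only sites, and the part of width in the difference was not tested beyond 1 measurement: with the summit of the site's stronger peak in place of the whole site, the odds ratio was 3.39. It was 1.93 when only IgG peaks of the same line were removed. Peaks are not replicates, and every p-value here compares these libraries, not conditions.

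Stronger coactivator peaks lay in acetylated regions more often. Fold enrichment is the authors' value at the summit, used to rank peaks within a list, which was cut into 5 equal classes. Peaks of equal fold were ordered by genome position. Adjacent classes can therefore hold peaks of the same fold, as with the Cbp values 3.43 and 3.77, which many peaks share. From the lowest to the highest class, 21.7%, 25.3%, 29.7%, 33.6% and 43.0% of p300 peaks matched. For Cbp the shares were 5.85%, 5.01%, 11.5%, 14.7% and 27.5%. The order over the classes was not tested. Distal p300 shares went from 19.6% to 44.4%, and gene-end shares from 31.3% to 39.6%. Matching p300 peaks had a median fold of 4.04 and a width of 343 bp, against 3.69 and 260 bp in non-matching ones. For Cbp these were 3.77 and 274.5 bp against 3.43 and 245 bp.

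**Figure D1:**
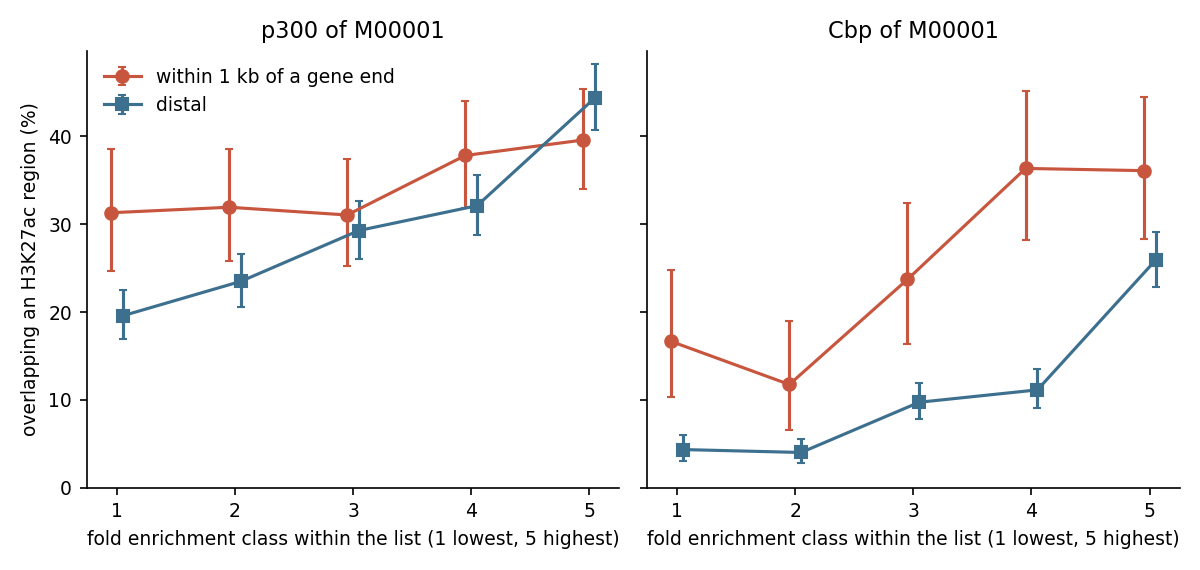
Share of p300 (left) and Cbp (right) peaks of M00001 that overlapped an H3K27ac region of M00002, in %, by class of fold enrichment within the list; circles are peaks within 1 kb of a gene end, squares distal peaks, bars exact 95% intervals. Peaks of equal fold were ordered by genome position before the cut. Distal p300 peaks went from 19.6% to 44.4% and distal Cbp peaks from 4.36% to 25.9%.

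The second question was whether matches differed between gene ends and distal positions. A peak was at a gene end when it came within 1 kb of either end of one of 21631 protein-coding genes, and distal otherwise. At gene ends lay 23.8% of p300 peaks, 13.4% of Cbp peaks and 22.1% of acetylated regions. Of gene-end Cbp peaks, 25.7% (161 of 627) matched, against 10.9% (445 of 4069) of distal ones (odds ratio 2.81, 2.29 to 3.45, Fisher's exact p = 6.58e-21, adjusted 1.02e-20). Among distal Cbp peaks, 13.4% of those inside genes and 9.11% of those between genes matched. For p300 the gap was small: 34.9% (417 of 1195) at gene ends against 29.3% (1121 of 3821) at distal sites (odds ratio 1.29, 1.12 to 1.48, Fisher's exact p = 0.000323, adjusted 0.000323). Distal p300 peaks inside genes matched at 33.4%, close to the gene-end share, and those between genes at 25.8%. The p300 difference did not hold with ac647 alone (odds ratio 1.02, exact p = 0.803) and turned with −log10 q of at least 5 (0.55, exact p = 0.0127), where the Cbp ratio fell to 0.65 (exact p = 0.495). With ac4729 alone the odds ratios were 2.80 for p300 and 5.45 for Cbp.

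**Figure D2:**
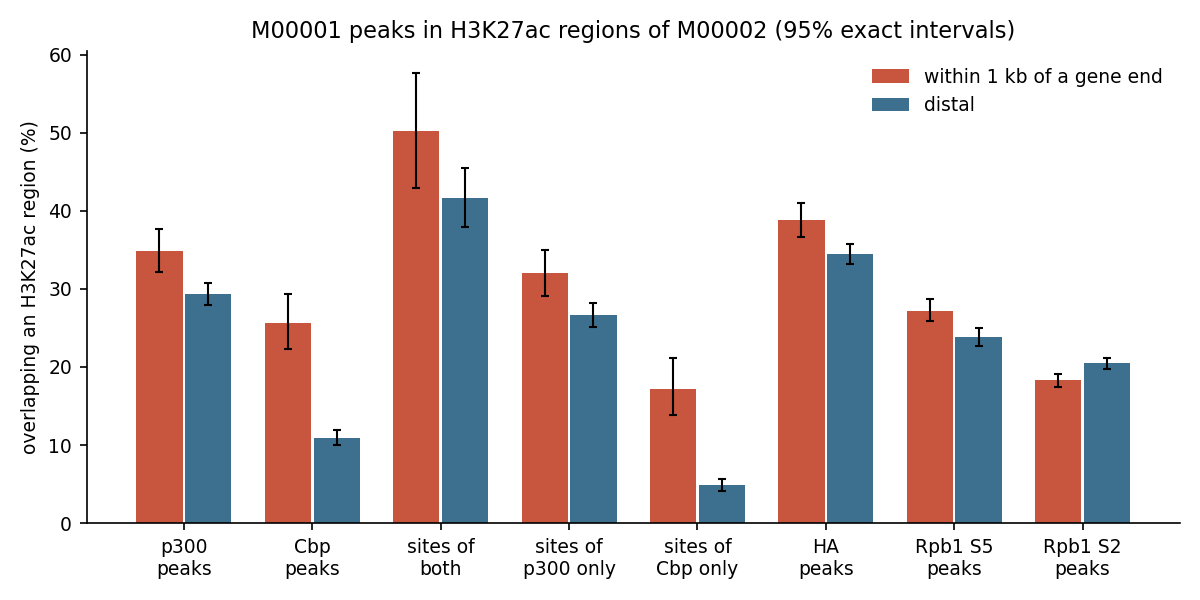
Share of peaks or sites of M00001 overlapping an H3K27ac region of M00002, in %, within 1 kb of a gene end and at distal positions, with exact 95% intervals. Sites of both coactivators were highest (50.3% and 41.7%) and distal sites of Cbp only lowest (4.87%).

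The share at gene ends depended on the antibody. At gene ends 61.6% of p300 peaks overlapped any ac4729 peak, against 36.4% at distal sites, while any ac647 peak lay at 31.9% and 31.5%. Peaks with ac4729 but not ac647 made up 27.6% of gene-end and 7.98% of distal p300 peaks, and 21.7% and 3.54% of Cbp peaks. Thus many gene-end sites counted as non-matching did carry H3K27ac by ac4729. No H3K27ac peak of either antibody lay at 34.9% of gene-end and 58.4% of distal p300 peaks, nor at 51.2% and 82.3% of Cbp peaks. The difference between the antibodies was not tested; their lists held 28814 and 14978 peaks, of which 36.7% and 74.5% lay in the acetylated regions.

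**Figure D3:**
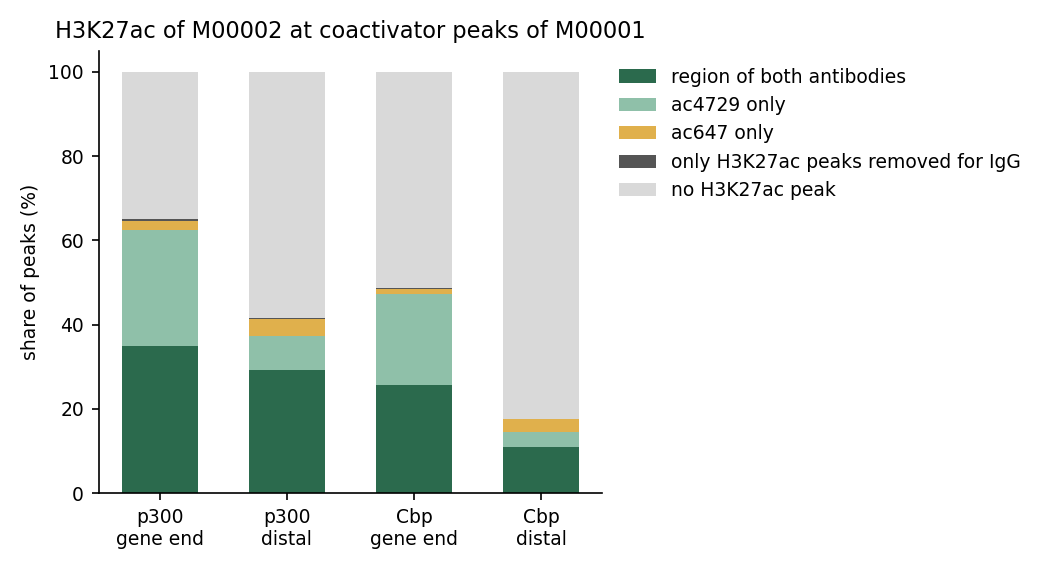
Stacked shares, in %, of gene-end and distal p300 and Cbp peaks of M00001 by the H3K27ac peaks of M00002 that they overlapped. The part with ac4729 only is 27.6% and 21.7% at gene ends against 7.98% and 3.54% at distal sites.

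The third question was whether matching and non-matching sites differed in the fusion and in polymerase of their own line. HA of M00001, which marks the fusion, lay at 45.4% of matching and 15.0% of non-matching p300 peaks. With position held, the odds were 4.62 times higher at matching peaks (Cochran-Mantel-Haenszel odds ratio, 4.02 to 5.31). For Cbp the shares were 54.0% and 8.56%, with an odds ratio of 10.4 (8.55 to 12.7). The HA difference was larger at distal sites, with odds ratios of 6.40 against 2.50 at gene ends for p300 (Breslow-Day chi-square test of the difference, adjusted p = 2.84e-09) and 15.1 against 4.88 for Cbp (chi-square, adjusted p = 9.85e-07). S5 lay at 59.2% of matching and 31.1% of non-matching p300 peaks (odds ratio 3.44, 3.01 to 3.94), and at 64.7% and 16.1% of Cbp peaks (8.43, 6.93 to 10.3). Both marks were thus more frequent at matching sites of either coactivator, with Fisher's exact p no larger than 2.28e-13 in each position. For S5, the odds ratios at distal sites and gene ends were 3.61 and 2.95 for p300 (chi-square, adjusted p = 0.236) and 9.98 and 5.34 for Cbp (chi-square, adjusted p = 0.0143). With only same-line IgG removed, the HA ratios fell to 2.88 and 5.82 and the S5 ratio of Cbp to 5.11. At −log10 q of at least 2 in the coactivator lists the Cbp ratios were 5.30 for HA and 4.66 for S5, and at 5 in all 4 lists 3.65 and 2.66. The p300 ratios were 3.58 and 2.76 at 2, and 4.55 and 3.23 at 5. These ratios hold position only. Matching peaks were also wider and of higher median fold, and the part of width and strength was not tested beyond these settings.

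Read the other way, HA and S5 of M00001 sorted the coactivator peaks by their acetylation in M00002. Among distal p300 peaks, 64.9% (262 of 404) of those with HA and S5 matched, and 14.9% (345 of 2320) of those with neither. Among distal Cbp peaks the shares were 53.9% (145 of 269) and 2.88% (90 of 3124). At gene ends they were 48.6% and 14.2% for p300 and 49.7% and 6.42% for Cbp. The intervals of gene-end Cbp and p300 peaks with both marks overlapped (41.4 to 57.9 and 43.6 to 53.6), and this difference was not tested. Of the marks not tested, S2 lay at 72.8% of matching and 39.6% of non-matching p300 peaks, and HA and p65 of M00002, the line of the acetylation, at 66.3% and 53.1% of matching and 20.3% and 13.7% of non-matching ones.

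**Figure D4:**
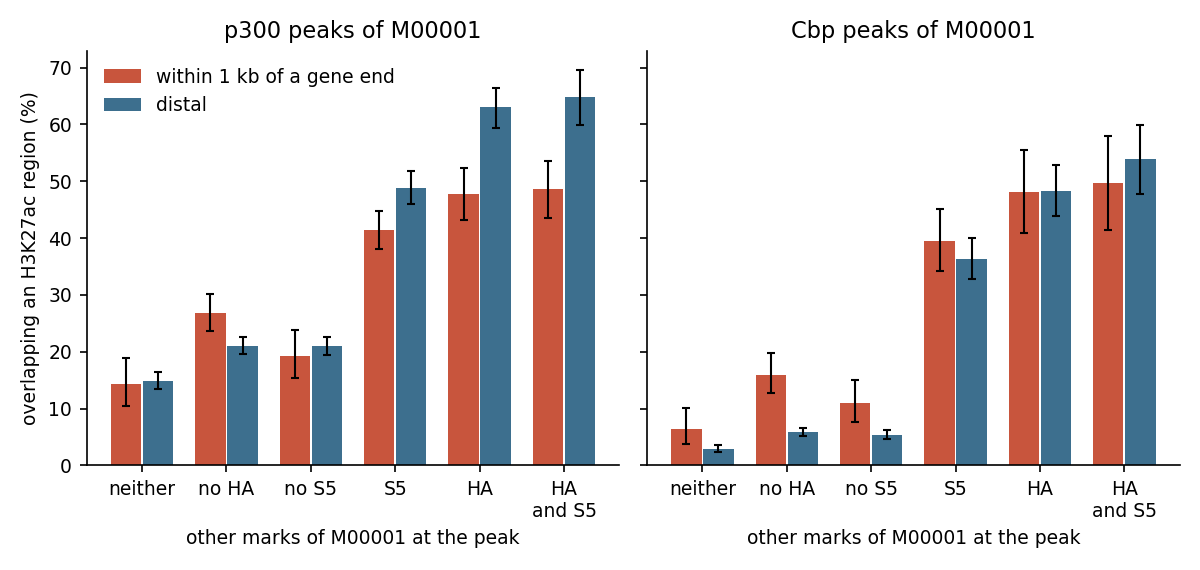
Share of p300 (left) and Cbp (right) peaks overlapping an H3K27ac region of M00002, in %, by whether HA or Rpb1 S5 of M00001 overlapped the peak, at gene ends and distal positions, with exact 95% intervals. Groups overlap except "neither" and "HA and S5"; distal p300 peaks went from 14.9% with neither to 64.9% with both.

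From the side of the acetylated chromatin, 17.0% (1747 of 10271; 16.3 to 17.8) of the regions held a coactivator peak. Both lay in 380 regions, only p300 in 1141, only Cbp in 226 and neither in 8524. Regions with both were the widest, with a median of 1148.5 bp, against 993, 968 and 839.5 bp. The share with a coactivator went from 11.2% in the narrowest to 27.5% in the widest of 5 width classes, and wider regions also have more room for a peak. HA of M00001 lay in 62.4% of regions with both coactivators and 20.3% of those with neither, and S5 in 77.9% and 15.2%. The share with a coactivator was 9.93% with coactivator peaks of −log10 q of at least 2, 9.61% with the 2000 strongest peaks of each list, 8.81% with ac4729 alone and 4.80% with −log10 q of at least 5.

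Most non-matching peaks lay far from a region called by both antibodies, though some overlapped a peak of 1 antibody, as given above. The median distance to the nearest such region was 74.0 kb for p300 and 104 kb for Cbp, and 42.8% and 50.8% lay over 100 kb away. Within 1 kb of one were 4.11% of non-matching p300 peaks and 2.25% of Cbp peaks. By chromosome, the lowest shares were on X, with 6.82% (6 of 88) for p300 and 2.78% (3 of 108) for Cbp, and the highest on 18 (47.2% and 28.8%) and 19 (42.8% and 19.2%). X held 123 acetylated regions; the difference between chromosomes was not tested.

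Around start sites the coactivator and acetylation summits differed in place. Of the summits within 1 kb of a RefSeq start site, 36.3% of matching p300 and 25.7% of matching Cbp summits lay within 100 bp of it. For non-matching p300 and Cbp summits the shares were 30.4% and 31.4%. For ac4729 and ac647 summits in regions they were 11.9% and 12.0%. The median p300 summit was 80.5 bp upstream when matching and 87.5 bp upstream when not, and the median Cbp summit 118 and 8 bp upstream. Acetylation summits fell on both sides of the start with a dip over it. Active start sites are known for a stretch free of nucleosomes, which carry the acetylated histone. At distal sites 91.8% of matching p300 peaks had their summit inside the region, and 33.7% of these lay in the middle 1 of 5 equal parts of it. At gene ends these shares were 84.4% and 22.7%. Matching peaks overlap the region by definition, so a summit inside it is in large part set by the rule.

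**Figure D5:**
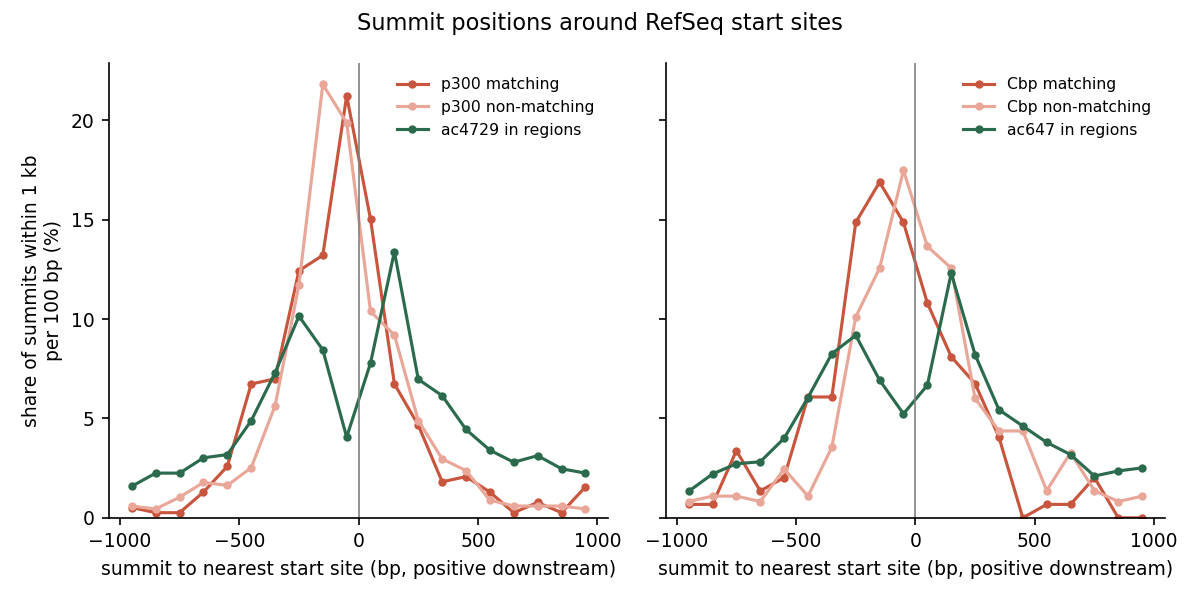
Distance of summits from the nearest RefSeq start site (bp, positive downstream) as the share of all summits within 1 kb, in % per 100 bp; left p300 and ac4729, right Cbp and ac647. Coactivator summits peak just upstream of the start, where both H3K27ac antibodies show a dip.

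The highest-ranked matching site of both coactivators at a gene end lay at Parp3, an ADP-ribosyltransferase of DNA repair, and Rrp9 of the U3 nucleolar particle (chr9:106476280-106477268), with folds of 6.98 for p300 and 7.70 for Cbp in a region with folds of 5.59 by ac4729 and 9.62 by ac647. Ptp4a1, a phosphatase, followed with 6.49 and 6.85 in a region of 1746 bp. Then came Scaf1 and the GTPase gene Rras (5.69 and 7.11), Sp1, which encodes a zinc finger factor known at many promoters (7.12 and 4.88), and Vim, the intermediate filament vimentin of radial glia (5.48 and 5.21). Rnft1, Rheb, an activator of mTORC1, and Ppp2r5a, a regulatory subunit of the phosphatase PP2A, completed the 8. All 8 carried HA and S5 peaks of M00001, with HA folds from 3.88 at Sp1 to 13.4 at Parp3.

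Among matching distal sites the highest lay inside Capzb, an actin capping subunit, 13.9 kb from a gene end (chr4:139206817-139207056). Its folds were 21.9 for p300, 25.1 for Cbp and 43.2 for HA, without an S5 or S2 peak. Others lay 57.4 kb from Klf6 (8.62 and 8.95), inside Kdelr2 (7.75 and 6.80), 89.0 kb from Myc (7.19 and 7.03), 3.77 kb from Gstp2, inside Rrp15, 25.9 kb from Hmgb1 and 116 kb from Parp11. The nearest gene is a matter of distance only. Of the 8 sites, the HA list of M00001 lacked a peak at Klf6, Kdelr2, Myc and Rrp15, and S5 peaks lay at all of these. The 4 highest p300-only matching sites were near Shf, Slc4a1ap, Cited2 (173 kb) and at Cnot3 (folds 7.40 to 7.81), and the 4 highest Cbp-only ones inside Ppfia4, Ccdc34 and Gm50595 and near Vmn1r2 (5.65 to 5.91).

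Non-matching gene-end sites of both coactivators had folds in a like range. Adgrf2 (9.30 and 10.0) and Rps29, a ribosomal protein gene (6.61 and 9.53), carried an ac647 peak, at Rps29 with a fold of 29.2, but none of ac4729. The median fold of ac647 peaks was 4.20, and whether the Rps29 peak reflects acetylation was not tested. The other 6 were Inpp5a (7.08 and 6.90), Vcl, which encodes the adhesion protein vinculin (6.71 and 6.75), Cpne9 with Brpf1, Aldh6a1 with Lin52, Mtmr4, and Tbc1d10b with Mylpf. Each of these 6 carried an ac4729 peak, with folds from 3.69 to 6.18, and lacked one of ac647. Hence all 8 had an H3K27ac peak of 1 of the antibodies, and all 8 carried S5. HA of M00001 lay at all of them but Tbc1d10b with Mylpf, with folds from 3.98 at Mtmr4 to 20.2 at Rps29. HA was thus not particular to the named matching sites. Non-matching distal sites of both lay near Il23r (17.7 and 19.7), inside Scgb1a1 (11.8 and 11.6), near Supt3 and Emp1, inside Srsf4 and Ssbp2, near Eef2kmt and inside Epm2a. Of these 8, those at Il23r and Srsf4 carried ac647 only and the one at Eef2kmt ac4729 only. HA of M00001 lay at Il23r, Srsf4, Eef2kmt and Epm2a, and S5 at all but Ssbp2 and Eef2kmt. The highest p300 fold of all, 25.5, was at a p300-only site 32.0 kb from Eea1 and 357 kb from any acetylated region; the next lay inside Kctd3 and near Cdh11 and Gdf6. The highest Cbp-only sites were near Gm8882 and Slitrk1, inside Cfhr3 and inside Lrmp (8.18 to 15.1).

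The 5 widest regions with both coactivators lay inside Actn1 (3477 bp), 181 kb from Hes1, a Notch target of radial glia, inside Cald1 and Dnm3, and at Naaladl2. HA of M00001 lay in each of them, with folds from 3.98 to 9.72. Among the widest with neither, 4 were at Dnaja2 (2838 bp) and Ntf5, inside Map1b and 38.8 kb from Dlk1. These 4 too held HA of M00001 (4.39 to 11.1), but none of them held S5.

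Counted per gene, with peaks within 5 kb of either end, 17.8% of the 21631 genes had an acetylated region, 4.11% a matching coactivator peak and 10.2% only non-matching peaks. Of the 889 genes with a match, 64.2% had an HA and 84.9% an S5 peak of M00001, against 31.8% and 54.5% of the 2203 genes with only non-matching peaks. Among all 3842 acetylated genes these shares were 45.5% and 60.4%, and among all 3092 genes with a coactivator peak 41.1% and 63.2%. Of 25 immediate early and CREB target genes, 13 were acetylated, 5 had a match (Fosl1, Junb, Egr1, Nr4a3 and Dusp1) and 6 only non-matching peaks. Egr1, a zinc finger factor induced within minutes, held folds of 6.29 for p300 and 3.70 for Cbp. Dusp1, a MAP kinase phosphatase, held 5.36 and 2.85. The −log10 q of the Cbp peak was 1.70 at Egr1 and only 0.256 at Dusp1, against 10.4 and 6.06 for p300. Both genes are textbook targets of signalling through CREB and SRF. The Fosl1 site lay inside its neighbour Ccdc85b. Klf6 and Sik1 missed a match by 0.116 and 0.078 kb.

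Of 20 NF-kappaB target genes, 9 were acetylated, 6 had a match and 4 only non-matching peaks. The matches were Nfkb2 and Relb, which encode subunits of the pathway (Cbp folds 4.48 and 3.46), the cytokine and chemokine genes Il6 (p300, 5.23), Ccl2 and Ccl5, and the adhesion gene Vcam1 (p300, 3.97). Nfkbia, the inhibitor of the pathway, carried both coactivators (4.66 and 3.09) at 92.4 kb from any acetylated region. Of 16 stress response genes, 10 were acetylated and 6 had a match: Atf4, Ddit3, Trib3, Chac1 and Sesn2, which belong to the amino acid and ER stress response, and the chaperone gene Dnajb1. The Ddit3 site lay inside its neighbour Mbd6, 1.17 kb from Ddit3. Chac1 carried folds of 5.36 for p300 and 3.70 for Cbp. Hsph1, Hsp90ab1, Ddit4 and Gadd45b had only non-matching peaks.

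Other lists are given beside the 17.8% of all genes with an acetylated region and the 4.11% with a match. Of 36 cytosolic ribosomal protein genes, 18 were acetylated and 1, Rpl14, had a match, by a p300 peak with a −log10 q of 0.776. Of the acetylated ones, 16 had no coactivator peak within 5 kb. Of 20 antigen presentation and interferon genes, 11 were acetylated and 2, Irf1 and Isg15, had a match (the Isg15 site lay inside Perm1, a neighbour), while B2m, Tap1, Tapbp, Psmb8 and Psmb9 were acetylated with no coactivator peak. Of 23 genes for lysine acetylation writers, erasers and readers, 12 were acetylated and 2 had a match, Brd2 and Hdac5. Ep300 itself was acetylated without a coactivator peak. These counts were not tested against other genes.

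The lists of lineage genes were set beside the 17.8% of all genes with an acetylated region. Of 18 radial glia genes, 10 were acetylated and 5 had a match: Vim, Sox9, Hes1, Id2 and Id3, with none having only non-matching peaks. Vim and Id3 held both coactivators, with p300 folds of 5.48 and 5.46. Sox9 had a Cbp peak alone (3.77), and Id2 and Hes1 a p300 peak alone (3.61 and 2.72). By fold, the Hes1 peak lay at percentile 1.72 of its list. Of 12 genes known from this tumour type, a list not independent of it, 9 were acetylated and 2 had a match, Hes1 and Relb. These are the same sites already counted under radial glia and NF-kappaB targets. Of the marker lists of other cells, the acetylated members were 0 of 11 for neurons, 2 of 11 for the oligodendrocyte lineage (Cnp and Myrf), 1 of 7 for astrocytes, 2 of 9 for microglia and leukocytes, 3 of 8 for endothelium (Cdh5, Cldn5 and Egfl7), 1 of 12 for ependymal cells and 1 of 10 for other tissues. Of these, Tmem119 of microglia had a match (p300 fold 4.75), and so had Apoa2 of liver (7.19), at a site that it shares with the end of Tomm40l. Only non-matching peaks lay near Rfx2 and Ccno of the ependymal list, Gfap of astrocytes, Spi1 of leukocytes and Sftpc of other tissues. Sftpc held both coactivators (5.63 and 3.86). The neuron, oligodendrocyte and endothelium lists had no coactivator peak within 5 kb.

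In 21020 upstream windows of 17252 genes, promoters with a matching and a non-matching coactivator peak held much the same short sequences. Non-matching does not mean free of H3K27ac here. Of all gene-end peaks, 27.6% for p300 and 21.7% for Cbp were non-matching but overlapped ac4729. GGGCGG was in 71.0% of 424 matching, 75.3% of 802 non-matching, 58.0% of 1327 acetylated windows without a coactivator and 43.0% of all windows. CCAAT was in 51.9%, 52.5%, 32.8% and 35.6%. The NF-Y sequence was thus more frequent in windows with a coactivator than in acetylated windows without, whose share lay near that of all windows. Median GC content was 63.4%, 64.0%, 60.4% and 55.6%, and its part in these shares was not tested. GCGCANGC was in 19.1%, 20.6%, 15.1% and 11.1%, and CCGGAAG in 11.8%, 12.7%, 15.1% and 9.09%. The NF-kappaB site was in 8.49%, 7.86%, 10.1% and 7.99%, TGACGTCA in 3.07%, 3.12%, 3.39% and 1.95%, TGANTCA (AP-1) in 4.25%, 3.62%, 5.50% and 6.18%, and AANATGGC (YY1) in 4.95%, 4.61%, 5.80% and 3.67%. Both strands were searched, and a match to letters is no evidence of binding.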

How the data were processed

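CUT&RUN peak lists of 11 libraries were analysed, 1 library per target and line, each deposited by the authors per sample. The submitters' processing notes name Bowtie2 2.3.5.1, MACS2, Trim Galore, FastQC and deepTools and the build mm10, with no settings; for the caller's control library, the choice was not stated in them. Per peak, the deposited lists give a score, a fold enrichment (a ratio over the caller's background), a −log10 p-value and a −log10 q-value, and the summit's distance from the peak start. The lists hold no counts, so read depth is unknown, and fold was used only within a list. Names of the M00002 lists for HA and p65 include an unexplained 120 bp, which touches only the shares given for those lists.

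Overlaps, merging and tests were computed in Python 3.11.15 with pandas 2.3.3, scipy 1.17.1 and statsmodels 0.14.6, and checked on simulated peaks. Peaks overlapping IgG of either line were removed before regions and sites were built. Shares carry Clopper-Pearson 95% intervals; Fisher's exact tests were two-sided with Benjamini-Hochberg adjustment over 17 planned tests, 5 Breslow-Day tests and 6 tests added after seeing the data, each as its own family; the threshold was 0.05. Genes and start sites come from RefSeq (GRCm38.p6); start sites were used for 17252 of 21631 genes, and those of the other 4379, among them the 511 on chromosome 18, were not used here, nor could their sites be chosen for a printed sequence, and gene ends were used without strand.

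Sites were ranked by the mean within-list percentile of p300 and Cbp fold. Named are the 8 highest sites of both in each of 4 classes, the 4 highest sites of a single coactivator in each of 4 classes, the 5 widest regions with both and with none (1 of the latter is not reported here), and up to 4 members of each list; further list members are named where a count of matches is given and were chosen after their values were seen. The 15 gene lists, the rule and the comparison were chosen with earlier results of these data known. Alternatives were minimum overlap, summit, −log10 q, strongest peaks, IgG removal, region definition, each antibody alone, and the gene-end window.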

Additional observations from a re-analysis of the deposited data

How the results depend on the processing

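Over 13 settings, 113 values were recomputed, of which 78 kept their direction, side of the threshold or place within the main interval. The odds ratios for HA, for S5 and for sites of both coactivators kept their direction and threshold in every setting run, ranging from 2.88 to 4.77 (HA, p300), 3.65 to 11.1 (HA, Cbp), 2.37 to 3.60 (S5, p300), 2.66 to 8.79 (S5, Cbp) and 1.93 to 4.17. The p300 odds ratio of gene ends against distal sites did not: it was 1.15 (exact p = 0.0642) with at least 50% of the peak covered, 1.13 (exact p = 0.0950) by summit, 1.04 (exact p = 0.720) with the 2000 strongest peaks, 1.11 (exact p = 0.167) with bases shared by both antibodies, 1.02 (exact p = 0.803) with ac647 alone, 0.98 (exact p = 0.887) with coactivator peaks of −log10 q of at least 2 and 0.55 (exact p = 0.0127) with −log10 q of at least 5 in all 4 lists, where the Cbp ratio was 0.65 (exact p = 0.495) on 215 Cbp peaks; the cause was not tested. The setting of −log10 q of at least 2 for the coactivators and that of the stronger peak's summit were chosen after seeing the data.

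The shares of p300, of Cbp and of regions with a coactivator were 27.8%, 11.7% and 15.4% with 50% covered, 27.5%, 11.5% and 15.2% by summit, 26.9%, 11.1% and 13.8% with shared bases, and 42.4%, 18.4% and 8.81% with ac4729 alone. They were 38.3%, 20.6% and 9.61% with the 2000 strongest peaks, 39.2%, 26.4% and 9.93% at −log10 q of at least 2, and 25.0%, 31.6% and 4.80% at 5. With ac647 alone Cbp was at 14.4% and the regions at 12.7%, with IgG-overlapping peaks kept at 16.5% and 19.8%, and with only same-line IgG removed p300 was at 27.1% and Cbp at 11.1%. The p300 share was above the Cbp share in every setting run except −log10 q of at least 5 in all 4 lists.

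No paired analysis was possible because each target had 1 library per line, and leaving out a replicate does not apply. Read depth is unknown, so a missing peak is no evidence that a protein or mark was absent. No sample group was large enough for a check of outlying samples.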
